A study of Mus musculus with 6 samples.

Results

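Leukocyte-associated miRNAs are those described mainly in white blood cells, and 6 of them were taken here by name: mmu-miR-142a, mmu-miR-223, mmu-miR-150, mmu-miR-146a, mmu-miR-146b and mmu-miR-155. All strands of these miRNAs in the deposited table were included, which gave 8 mature strands of the 535 in the table. Both strands were listed for 2 of the miRNAs, miR-142a and miR-223, and a single strand for the other 4. A miRNA is cut from a hairpin precursor whose 2 arms give a 5p and a 3p strand, and the seed of a strand, bases 2 to 8, pairs with target messenger RNAs. miR-142a is expressed across blood cell lineages, miR-223 is a miRNA of neutrophils and monocytes, and miR-150 is abundant in mature lymphocytes. miR-146a, miR-146b and miR-155 are induced when immune cells are activated, although miR-146b is also made in other tissues. Macrophages populate the embryonic mouse kidney while nephrons are forming, so a preparation of fetal kidney cells can hold leukocytes.

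CD1 mice at embryonic day 15.5 supplied the material for both groups, each with 3 libraries, and each library was pooled from the embryos of 1 litter. Both groups came from 3 litters in all, and which libraries share a litter is not given in the sources used here. The nephron progenitor group (MNP) consisted of nephrogenic mesenchymal cells left after magnetic depletion with antibodies to CD140a, CD105, Epcam and Ter119, which mark stromal, endothelial, epithelial and erythroid cells. No antibody to CD45, the surface protein common to leukocytes, was among them. The whole kidney group (MWK) was the tissue that remained after limited digestion. Purification used a different RNA kit in each group, so the kit, the cell isolation and the group cannot be told apart. The counts on known miRNAs, with the highest count kept over the rows of a mature miRNA, came to 393951 in MNP1, 436112 in MNP2, 333850 in MNP6, 349241 in MWK1, 360221 in MWK2 and 355848 in MWK6. No sample title carries the names MNP6 and MWK6, and the sample titles MNP3 and MWK3 have no column of their name. The columns MNP6 and MWK6 were used by their group only. Levels are in CPM, the counts relative to the library total multiplied by its TMM factor. This factor ran from 0.882 in MWK2 to 1.14 in MNP6, so the CPM do not sum to the same total in each library. The smallest amount read as detected was set at more than 3 counts, and 3 counts equal 6.54 to 9.45 CPM. Without molecular identifiers on the reads, both this floor and the counting intervals cover counting error only.

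MNP6 stood apart from the other nephron progenitor libraries. The 8 strands summed to 1347 CPM in MNP1, 1253 CPM in MNP2 and 867 CPM in MNP6. In whole kidney they summed to 1176 CPM in MWK1, 1212 CPM in MWK2 and 1092 CPM in MWK6. MNP6 was below every other library in this sum, and the groups overlapped. The mean was 1156 ± 254 CPM in nephron progenitors against 1160 ± 61.9 CPM in whole kidney (SD, n = 3), so that nephron progenitors held 99.6% of the whole kidney level, and 112% without MNP6. The near equality depended on the scaling, and with library totals in place of TMM the level was 114%. A single strand, miR-146b-5p, made up 81.8% to 88.2% of the sum in each library. Without it the sum was 227, 218 and 113 CPM in MNP1, MNP2 and MNP6 against 204, 220 and 128 CPM in MWK1, MWK2 and MWK6, with MNP6 and MWK6 low in their groups, and nephron progenitors then held 101% of the whole kidney level. In bulk libraries such as these, fewer cells of a type and less of a miRNA per cell cannot be told apart.

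The comparison asks whether these miRNAs differ between nephron progenitors and the kidney around them. Of the 8 strands, all exceeded 10 counts in sum and were tested, and 1 passed an adjusted p of 0.05, miR-223-5p, which was higher in nephron progenitors. This is 12.5% of the strands, where the quasi-likelihood test of edgeR, adjusted by Benjamini-Hochberg, called 36.6% of all 525 miRNAs tested and found 19.4% higher in nephron progenitors. Counts were low, and 7 of the 8 strands had a mean of under 50 counts per library and 4 of them under 10. Of all tested miRNAs with a mean under 10 counts, 29 of 191 passed (15.2%), against 61 of 131 with a mean of 10 to 50 counts (46.6%) and 102 of 203 above that (50.2%). The called strand was 1 of the 4 members in the lowest class. The groups did not overlap in CPM for 1 strand of the 8, again miR-223-5p, beside 46.7% of all miRNAs tested. The median log2 fold change of the 8 strands was -0.074, also with miR-223-5p set at its lower bound, and that of all tested miRNAs was -0.0114. The sign of the strands' median turned with limma-voom (0.16), with library totals (0.12), without MNP6 (0.13) and without MWK2 (0.35). Without MNP6, 2 of the 8 strands passed, miR-142a-3p and miR-223-5p, where the background was 34.3% of 507 miRNAs.

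**Figure D1:**
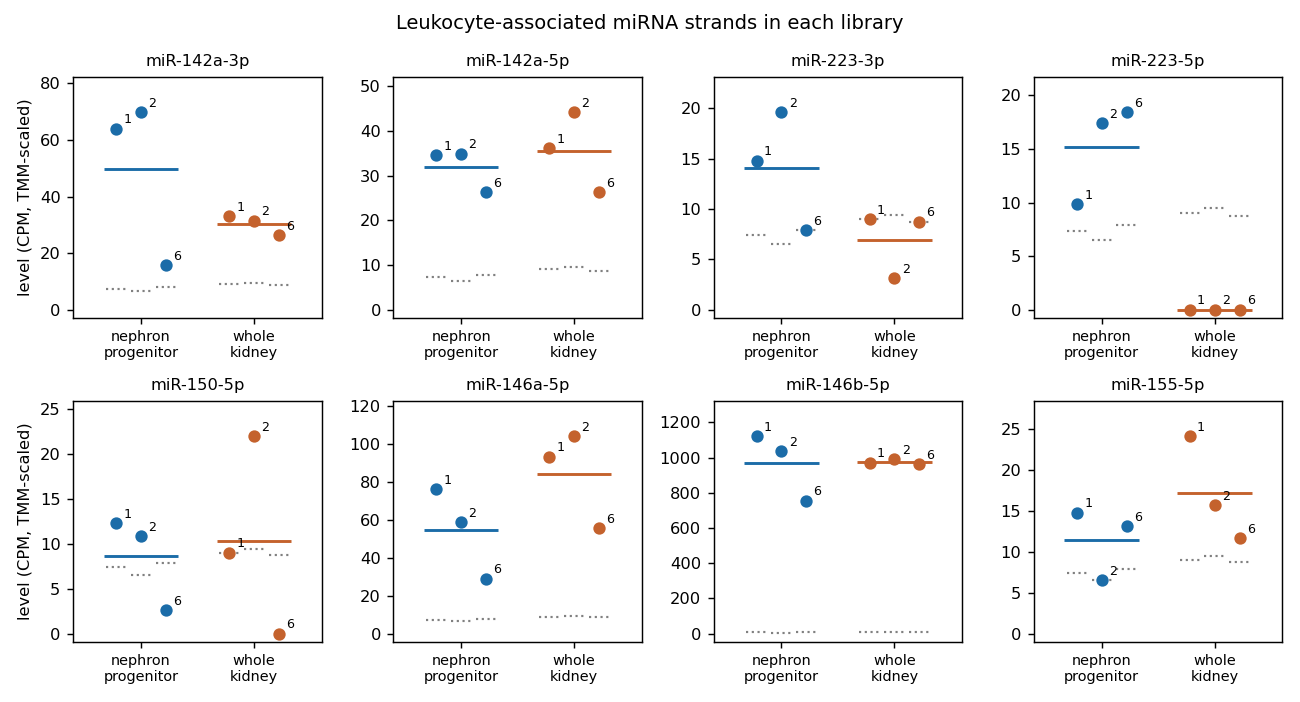
Level of each strand in each library, in TMM-scaled CPM on a linear axis with its own range per panel; points are libraries labelled by the digit in their name, solid lines are group means of 3 libraries and dotted marks are 3 counts in that library. The groups overlap in 7 panels, and in the panel of miR-223-5p the whole kidney libraries are all at 0.

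miR-142a is widely used as a mark of blood cells. Its 3p strand had 26, 32 and 6 counts in MNP1, MNP2 and MNP6, and 11, 10 and 9 counts in MWK1, MWK2 and MWK6. Thus MNP1 and MNP2 were above all whole kidney libraries and MNP6 was below all of them. The mean was 49.8 ± 29.6 CPM in nephron progenitors against 30.3 ± 3.56 CPM in whole kidney, and the log2 fold change was 0.74 (SE 0.46, 95% interval -0.25 to 1.73, adjusted p = 0.26 from edgeR). The value rested on single libraries: edgeR gave a log2 fold change of 1.10 (adjusted p = 0.011) without MNP6, 0.39 (adjusted p = 0.65) without MNP2 and 0.55 (adjusted p = 0.42) without MNP1. These adjusted p values span the range over all 16 alternatives, of which 3 passed, each without MNP6. The 5p strand of the same hairpin had 14, 16 and 10 counts in MNP1, MNP2 and MNP6 and 12, 14 and 9 counts in MWK1, MWK2 and MWK6. The groups overlapped, at 31.9 ± 4.84 CPM and 35.5 ± 8.92 CPM, and the log2 fold change was -0.14 (SE 0.35, 95% interval -0.89 to 0.60, edgeR's adjusted p = 0.81). This sign turned under library totals, with 0.06, a scaling that moved the median of all tested miRNAs to 0.188.

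The strands of miR-142a also allowed their balance to be compared, which does not depend on scaling. The 3p strand took 65.0%, 66.7% and 37.5% of the reads of both strands in MNP1, MNP2 and MNP6. In whole kidney it took 47.8% in MWK1, 41.7% in MWK2 and 9 of 18 reads in MWK6. MNP6 had the lowest share of all libraries and the other nephron progenitor libraries the highest. With 16 to 48 reads behind each share, the 95% Wilson interval ran from 18.5% to 61.4% in MNP6 and from 52.5% to 78.3% in MNP2. The test of this share required at least 20 reads over both strands in every library, which neither miR-142a nor miR-223 reached, so it was not run. The mean share was 56.4% ± 16.4 in nephron progenitors against 46.5% ± 4.32 in whole kidney, a difference of 9.89 points. This difference depended on single libraries, with 19.3 points without MNP6 and 4.75 points without MNP2.

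miR-223, which limits the production and activity of neutrophils, was close to the floor. Its 5p strand had 4, 8 and 7 counts in MNP1, MNP2 and MNP6 and 0 counts in each whole kidney library. All nephron progenitor libraries were above the floor of 3 counts and the groups did not overlap. The mean in nephron progenitors was 15.2 ± 4.68 CPM, which is at least 1.68-fold higher than whole kidney when the latter is set at 3 counts in each library. edgeR's adjusted p was 0.005, and the fitted fold change is not given as a size because whole kidney had no counts. The strand entered the test through its 19 counts in nephron progenitors alone. It stayed past the threshold in 14 of the 16 alternatives in which it could be tested, with adjusted p values from 0.00075 to 0.085. The 2 exceptions were the fits to the 4 numbered libraries, which leave out MNP6 and MWK6 together.

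The 3p strand of miR-223, the main product of the hairpin in myeloid cells, had 6, 9 and 3 counts in MNP1, MNP2 and MNP6 and 3, 1 and 3 counts in MWK1, MWK2 and MWK6. Whole kidney did not exceed the floor in any library, MNP1 and MNP2 did, and MNP6 met the whole kidney values. In CPM this was 14.1 ± 5.89 against 6.98 ± 3.32, and the ratio of the summed counts, scaled by library size, was 2.05 with a 95% exact counting interval of 0.817 to 5.80. edgeR's adjusted p was 0.28, with 0.17 to 0.61 over 16 alternatives. Of all reads of both strands, the 3p strand held 18 of 37 in nephron progenitors (48.6%) and 7 of 7 in whole kidney. The whole kidney shares rest on 1 to 3 reads per library, and in MWK2, with 1 read, the Wilson interval started at 20.7%.

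The sequences are shown for the hairpins whose 2 strands were both read, with the mature arms in capitals, to place each strand in its precursor. They are from RefSeq (GRCm38.p6), at chr11:87756864-87756927 on the plus strand and chrX:96242817-96242926 on the plus strand.
mmu-mir-142a: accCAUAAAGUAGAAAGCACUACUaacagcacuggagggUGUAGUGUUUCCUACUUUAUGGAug
mmu-mir-223: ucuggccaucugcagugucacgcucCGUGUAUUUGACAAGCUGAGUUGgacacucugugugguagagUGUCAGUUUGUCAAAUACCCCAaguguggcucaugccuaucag

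miR-150, which restrains Myb in lymphocytes, was at the floor in both groups. miR-150-5p had 5, 5 and 1 counts in MNP1, MNP2 and MNP6 and 3, 7 and 0 counts in MWK1, MWK2 and MWK6. It exceeded 3 counts in 2 nephron progenitor libraries and in 1 whole kidney library, and the highest and the lowest values were both from whole kidney. The mean was 8.61 ± 5.23 CPM and 10.4 ± 11.1 CPM, with a log2 fold change of -0.20 (SE 0.87, edgeR's adjusted p = 0.89). Its direction turned with limma-voom (0.35), without MNP6 (0.15) and without MWK2 (0.92). Its 95% interval, from -2.08 to 1.69, corresponds to a ratio of 0.236 to 3.22, and holds both counting error and the spread between libraries.

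The miR-146 pair restrains inflammatory signalling by targeting Traf6 and Irak1, and miR-146b-5p was the most abundant of the 8 strands in every library. miR-146b-5p had 455, 475 and 287 counts in MNP1, MNP2 and MNP6 and 323, 315 and 330 counts in MWK1, MWK2 and MWK6. After scaling these were 1120, 1035 and 754 CPM and 971, 992 and 963 CPM. The whole kidney libraries lay within a narrow band, MNP1 and MNP2 above it and MNP6 below it. The mean was 970 ± 191 CPM in nephron progenitors against 975 ± 14.8 CPM in whole kidney, which placed the strand 94th among the 525 miRNAs. The log2 fold change was -0.0078 (SE 0.19, edgeR's adjusted p = 0.98), and its 95% interval of -0.42 to 0.41 corresponds to a ratio of 0.746 to 1.33. The sign of so small a value changed with the scaling, and under library totals it was 0.19, close to the shift of the median of all miRNAs under that scaling.

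miR-146a-5p was lower in abundance, with 31, 27 and 11 counts in MNP1, MNP2 and MNP6 and 31, 33 and 19 counts in MWK1, MWK2 and MWK6. MNP6 was again the lowest library, and MWK6 lay below MNP1 and MNP2 after scaling. The mean was 54.7 ± 24.0 CPM against 84.2 ± 25.5 CPM, with a log2 fold change of -0.61 (SE 0.36, 95% interval -1.37 to 0.16, edgeR's adjusted p = 0.23). No alternative brought it past the threshold, with adjusted p values between 0.06 and 0.51 in the 17 tried. As a share of the reads of both miR-146 5p strands, miR-146a-5p took 6.38%, 5.38% and 3.69% in MNP1, MNP2 and MNP6, against 8.76%, 9.48% and 5.44% in MWK1, MWK2 and MWK6. The groups overlapped in this share, through MWK6, and it averaged 5.15% ± 1.36 and 7.89% ± 2.15. Of the libraries with equal replicate numbers, MNP1 was below MWK1 and MNP2 below MWK2, a comparison within litters only if equal numbers mark a litter.

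miR-155, made from a long non-coding transcript that is induced in activated lymphocytes and macrophages, was rare in both groups. miR-155-5p had 6, 3 and 5 counts in MNP1, MNP2 and MNP6 and 8, 5 and 4 counts in MWK1, MWK2 and MWK6. All libraries but MNP2 were above the floor, and the groups overlapped. The mean was 11.5 ± 4.36 CPM and 17.2 ± 6.31 CPM, a log2 fold change of -0.59 (SE 0.55, 95% interval -1.77 to 0.60, edgeR's adjusted p = 0.47). In no alternative did it pass, with adjusted p values of 0.26 to 0.79.

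The mature sequences were matched by name in RefSeq (GRCm38.p6) for 7 of the 8 strands and are shown with the seed in capitals, because the seed sets which members could share targets.
mmu-miR-142a-3p: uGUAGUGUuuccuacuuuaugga
mmu-miR-142a-5p: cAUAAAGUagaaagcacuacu
mmu-miR-223-3p: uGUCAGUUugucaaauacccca
mmu-miR-223-5p: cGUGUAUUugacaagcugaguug
mmu-miR-146a-5p: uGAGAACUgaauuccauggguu
mmu-miR-146b-5p: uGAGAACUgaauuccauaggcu
mmu-miR-155-5p: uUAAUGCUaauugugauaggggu
Among the members, miR-146a-5p and miR-146b-5p had a seed in common. None of the other 5 shared its seed with any of the 440 mature miRNAs of the table that have a sequence in RefSeq. Counted from 1 at the 5′ end, and with the base of miR-146a-5p first, the pair differs by G18A and U21C. Strands this alike can share reads when mismatches are allowed in counting, so the division of reads between them is uncertain.

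The 6 precursors lie at separate loci. In the GENCODE annotation of the mm10 genome, mir-146b (chr19:46342762-46342870, plus strand) lies in an intron of the protein-coding gene Mfsd13a. mir-142a lies in an intron of the non-coding gene Mir142hg and is overlapped on the minus strand by Mir142b, which was not analysed here. mir-155 (chr16:84714140-84714204, plus strand) is within an exon of Mir155hg, and mir-223 within an exon of F630028O10Rik. No other gene overlaps mir-146a (chr11:43374397-43374461, minus strand) or mir-150 (chr7:45121757-45121821, plus strand).

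Within nephron progenitors the levels ran from miR-146b-5p, through miR-146a-5p and miR-142a-3p, to miR-142a-5p, miR-223-5p, miR-223-3p, miR-155-5p and miR-150-5p. The range of miR-146b-5p stood clear of the next strand, as did that of miR-142a-5p from miR-223-5p, and all other neighbours overlapped. In whole kidney miR-146b-5p was again highest and miR-146a-5p was the next. There miR-142a-5p came before miR-142a-3p with overlapping ranges, followed by miR-155-5p, miR-150-5p and miR-223-3p, which overlapped in turn, and by miR-223-5p without a count. These comparisons are between CPM of strands of similar length, and ligation differences between sequences were not measured here.

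The abundance of miR-146b-5p allowed its pattern over the 6 libraries to be set beside those of 202 other miRNAs with a mean of at least 50 counts. The nearest, by root mean square difference of centred log2 CPM, were let-7d-5p (0.0773), let-7f-5p (0.0864) and miR-3535 (0.0908), where the median of all 202 was 0.382. The level of let-7d-5p was 4072 ± 784 CPM in nephron progenitors against 4077 ± 272 CPM in whole kidney.

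Of 5 other miRNAs described in leukocytes or in their activation, miR-342, miR-132 and miR-212 had 6 strands in the table, and miR-511 and miR-147 had none. Of the 6 strands 3 were higher, 1 was lower and 2 did not pass, beside 36.6% of all miRNAs called and 19.4% called higher, and the median log2 fold change was 1.30. With DESeq2 the list had 2 higher and 0 lower, and under library totals 3 higher and 0 lower. Of the 5 strands tested without MNP6, 2 were higher and 0 lower. Both fits to the 4 numbered libraries gave 1 higher and 1 lower of 5. miR-132-5p had 44, 54 and 59 counts in MNP1, MNP2 and MNP6 and 10, 15 and 9 counts in MWK1, MWK2 and MWK6, without overlap, and its log2 fold change was 1.87 (SE 0.31, edgeR's adjusted p = 0.00035). It passed in all 16 alternatives. From the same cluster, miR-212-5p rose by 1.50 (SE 0.31, adjusted p = 0.0021), and by 1.09 without MNP6, the library where it was highest; the call was lost in the fits to the 4 numbered libraries (adjusted p = 0.072, within 3.4e-06 to 0.072 over its alternatives). The remaining strand, miR-212-3p, had 3, 5 and 4 counts in nephron progenitors and 0, 1 and 1 counts in whole kidney. It entered the test through nephron progenitors alone, and passed in neither the 6-library fit (adjusted p = 0.1) nor any of 12 alternatives. This cluster is induced by CREB and is known from neurons as well as immune cells. The call of miR-132-3p, at 1.09 (adjusted p = 0.022), was lost without MNP6 (0.91, adjusted p = 0.069, within 0.0043 to 0.24 over its alternatives), and also without MNP2, MWK2 or MWK6. It held in 9 of 16 alternatives.

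miR-342-3p, from an intron of Evl and expressed in lymphoid and myeloid cells, had 32, 42 and 23 counts in MNP1, MNP2 and MNP6 and 46, 46 and 37 counts in MWK1, MWK2 and MWK6. After scaling, every nephron progenitor library was below every whole kidney library, at 76.9 ± 15.6 CPM against 130 ± 19.7 CPM. The log2 fold change was -0.75 (SE 0.26, edgeR's adjusted p = 0.037), and the call held in 10 of 17 alternatives, with adjusted p values from 0.023 to 0.13. The 7 losses were with DESeq2, library totals, summed rows and every row tested, and without MNP6, MWK1 or MWK2, at log2 fold changes between -0.73 and -0.55. The levels of miR-342-5p were 59.0 ± 10.3 CPM and 55.4 ± 14.6 CPM. Summed, the list stood at 564, 686 and 904 CPM in MNP1, MNP2 and MNP6, against 457, 362 and 344 CPM in MWK1, MWK2 and MWK6, led by miR-212-5p, with MNP6 the highest library.

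**Figure D2:**
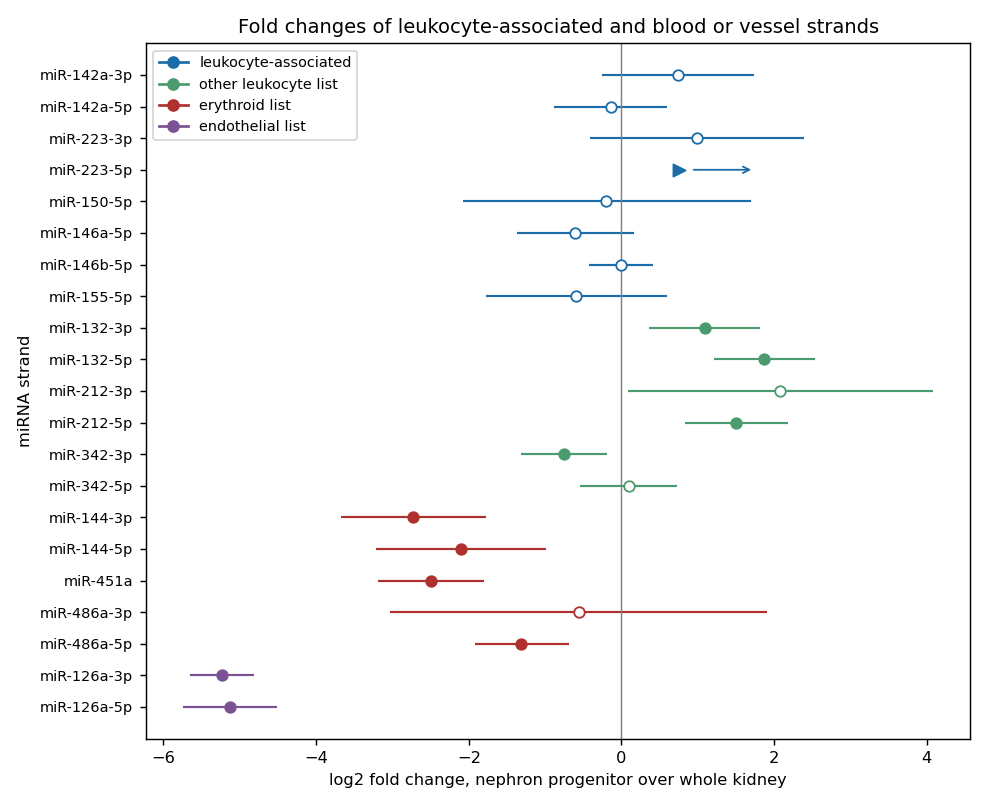
Log2 fold change of nephron progenitors over whole kidney for the 8 leukocyte-associated strands and for strands of the other leukocyte, erythroid and endothelial lists, with 95% intervals from the fit to 6 libraries. Filled symbols passed an adjusted p of 0.05, and the triangle with an arrow marks miR-223-5p at its lower bound. The intervals of the other 7 leukocyte-associated strands all include 0, whereas those of the endothelial strands end at -4.81 and -4.51.

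Markers of the other cell types in the kidney are given beside these values, and whether they have a part in them was not tested. The erythroid list (miR-451a, miR-144, miR-486a and miR-486b) fell in 4 of 5 distinct strands, beside 17.1% of all tested miRNAs called lower. The strands are called distinct since those of miR-486b had the same counts as those of miR-486a. It summed to 391, 283 and 176 CPM in MNP1, MNP2 and MNP6 and to 1495, 1486 and 762 CPM in MWK1, MWK2 and MWK6, so MNP6 and MWK6 were low here too. Its most abundant strand, miR-451a, had a log2 fold change of -2.50 (SE 0.32, edgeR's adjusted p = 5.3e-05). Endothelial miR-126a was at 2.67% of its whole kidney level and both strands fell, with 161, 253 and 212 counts of miR-126a-3p in MNP1, MNP2 and MNP6 against 6341, 6440 and 5868 in MWK1, MWK2 and MWK6. The epithelial list (miR-429, miR-141 and miR-200a to miR-200c) fell in 7 of 7 strands, beside the same 17.1%, led in abundance by miR-200a-3p. Of these, miR-141-3p and miR-200b-5p had 0 counts in every nephron progenitor library and entered the test through whole kidney alone. So did miR-200c-3p, with 2, 4 and 4 counts in MNP1, MNP2 and MNP6. The epithelial list summed to 227, 386 and 89.3 CPM in MNP1, MNP2 and MNP6, the lowest again in MNP6, beside 23741 ± 1802 CPM in whole kidney.

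The leukocyte-associated strands at 99.6% of the whole kidney level stood beside the other leukocyte list at 185% (136% without miR-212-5p). Stromal and smooth muscle strands were at 57.7% (126% without miR-143-3p), erythroid strands at 22.7%, endothelial strands at 2.67% and epithelial strands at 0.985%. The skeletal muscle list was at 361% (151% without miR-206-3p) and liver miR-122-5p at 991%. In whole kidney miR-122-5p did not exceed the floor of 3 counts in any library, so its percentage is not an exact size. The difference between these lists was not tested. The stromal and smooth muscle list (miR-143, miR-145a, miR-199a, miR-199b and miR-214) was led by miR-143-3p. Of its 9 distinct strands 1 was higher, 2 were lower and 6 did not pass, a share near the 36.6% of all miRNAs called. This count moved to 3 higher and 2 lower without MNP1, and to 2 higher and 2 lower under library totals. The list summed to 37322, 49543 and 50329 CPM in MNP1, MNP2 and MNP6 and to 79297 ± 7829 CPM in whole kidney. Without miR-143-3p its sum was 20735 ± 4370 CPM against 16507 ± 599 CPM. The median log2 fold change of all 9 was 0.17. miRNAs of tissues outside the kidney were read as well: liver miR-122-5p had 40, 11 and 21 counts in MNP1, MNP2 and MNP6 and 2, 1 and 3 counts in MWK1, MWK2 and MWK6. miR-122-5p exceeded 10 counts in sum through nephron progenitors alone. The skeletal muscle list (miR-1a, miR-133a, miR-133b and miR-206) had 3 strands in the table, of which 1, miR-206-3p, was higher, beside 19.4% of all tested miRNAs. miR-206-3p had 76, 129 and 25 counts against 0, 5 and 1, and entered the test through nephron progenitors alone. The other strands, miR-1a-3p (log2 fold change 0.58) and miR-133a-3p (1.06), did not pass, and miR-133a-3p also entered the test through nephron progenitors alone. The list summed to 300, 438 and 131 CPM in MNP1, MNP2 and MNP6 and 80.3 ± 28.8 CPM in whole kidney.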

How the data were processed

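Adapter trimming (BBDuk), alignment to mm10 (Bowtie2 2.2.3) and counting of miRBase miRNAs (miRDeep2) were done by the authors. The authors deposited estimated counts, not normalized, for each mature miRNA on each of its precursors. The 3 of 792 rows with fractions were rounded, and the highest count over the rows of a mature miRNA was kept in each library; each member strand had 1 row. The members and lists were chosen with earlier results of these data known. Those above 10 counts in sum were scaled by TMM and tested in edgeR 4.0.16 (R 4.3.3) by quasi-likelihood, with Benjamini-Hochberg adjustment over 525 miRNAs. A standard error is the absolute log2 fold change over the square root of F, and 95% intervals use the t quantile at the degrees of freedom of the fit. Named miRNAs are all strands of the members and marker lists, and the 3 with a pattern nearest to miR-146b-5p; log2 CPM for that used a prior count of 2. In list sums, strands with identical counts entered once. Alternatives used DESeq2 1.42.0, limma-voom (limma 3.58.1), other scalings, filters and row handling, the replicate number and leaving out each library. Of these steps, only the edgeR fit was checked on simulated counts. Both groups came from 3 litters, and the fit treats the libraries as unpaired. Figures were drawn with matplotlib 3.10.9.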

Additional observations from a re-analysis of the deposited data

How the results depend on the processing

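Under DESeq2, limma-voom, both other scalings, no filter, summed rows and leaving out the 10 most abundant miRNAs, miRNAs past the threshold numbered 163 to 195 beside 192, and 1 of the 8 strands passed each time, miR-223-5p. It also passed when every row was tested, where 201 of 781 rows did and a mature miRNA can count several times. Requiring more than 10 counts in every library left 260 miRNAs, with 120 past the threshold, and 2 of the strands, of which edgeR called 0 (0 also at an unadjusted p under 0.05). Leaving out a library gave 144 to 211 miRNAs and 1 to 2 strands, a summed level of 91.4% to 112%, and differences in 3p share of 4.75 to 19.3 points for miR-142a and -58.5 to -43.5 points for miR-223. With all libraries, the summed level was 114% under library totals and 97.7% with summed rows, beside 99.6%.

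Log2 fold changes that did not pass changed sign in places, and the cause was not tested. For miR-146b-5p (-0.0078) they were 0.0092 with DESeq2, 0.009 with its size factors, 0.19 with library totals, 0.0019 without a filter, 0.041 with the strict filter, 0.023 with summed rows, 0.064 with every row tested and 0.014 without the 10 most abundant miRNAs; leaving out a library gave -0.12 to 0.11. miR-150-5p was at 0.35 with limma-voom and at -0.78 to 0.92 with a library left out, and miR-142a-5p at 0.06 with library totals and at -0.31 to 0.03.

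The replicate numbers 1 and 2 occur in both groups, and both groups came from 3 litters, but whether equal numbers mark a litter is not given in the sources used here. MNP6 and MWK6 match no sample title and were not paired, and the titles MNP3 and MWK3 match no column. The difference between the numbered libraries of one group correlated with that of the other at 0.0394 over the miRNAs, which are not independent replicates. On these 4 libraries a replicate block gave 153 miRNAs past the threshold and no block 134 (27.5% of 487). Either way 1 strand passed, miR-142a-3p (adjusted p = 0.041 with the block, 0.037 without it), and miR-146b-5p was at 0.10. Intervals of the uncalled strands with a mean under 10 counts span several-fold differences, from counting error and spread between libraries together.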
